A study of Rattus norvegicus with 5 samples.

Results

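Genes that carry proteins into the endoplasmic reticulum (ER), fold them there and ship them in vesicles were examined in rat tendon stem/progenitor cells (rTSPCs) that had been passaged with or without prim-O-glucosylcimifugin (POG), a chromone glucoside. The genes were chosen by symbol: families beginning with Sec, Ssr, Srp or Rpn and a digit, with Pdia, Copa, Copb, Copg, Copz, Tmed, Kdelr, Ergic, Ero1 or Edem, together with Ddost, Calr, Canx, Cope, Ern1, Trib3, Xbp1, Ddit3, Sdf2l1 and Creld2. This gave 51 genes, each with 1 probe set, of 7235 genes with a symbol and 10141 probe sets in the deposited array table. Copa, Copb1, Cope and the Ero1 genes were not analysed here, having no probe set with their symbol in the annotation used. Other families were incomplete too. Sec23a, Sec24d, Sec61b, Sec62, Ssr3, Pdia3, Kdelr1, Ergic1 and Edem1, for example, were not among the 51 genes.

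The POG-treated rTSPCs (2 arrays) received 20 μmol/L POG in the medium at every passage between passage 3 and passage 12, and the DMSO-treated rTSPCs (3 arrays) received the solvent dimethyl sulfoxide over the same passages. Both were harvested at passage 12, a model of senescence by serial passage. According to the study's methods, rTSPCs were grown out of selected colonies from Achilles tendon digests. The cells for serial passage came from male Sprague-Dawley rats of 3 months. Titles call the arrays biological replicates, but no source used here ties them to separate animals or cultures. The p-values below therefore rest on the spread among the 5 arrays alone, and this spread may be technical.

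Proteins bound for secretion, collagen above all in a tendon cell, are recognised as they emerge from the ribosome by the signal recognition particle, threaded through the Sec61 channel, cut by signal peptidase, N-glycosylated by the oligosaccharyltransferase and folded by lectin chaperones and disulfide isomerases. Vesicles coated with COPII leave the ER for the Golgi, and vesicles coated with COPI carry escaped ER residents back. When unfolded proteins build up, the sensors IRE1 (Ern1), PERK (Eif2ak3) and ATF6 start the unfolded protein response (UPR), in which XBP1, ATF4 and ATF6 drive chaperone and transport genes through short promoter elements. The best known are the ER stress element ERSE, in which CCAAT and CCACG are separated by any 9 bases, and the UPR element, TGACGTGG.

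Promoter windows were searched for exact matches to these elements. RefSeq windows of 300 bases on the GRCr8 build held 250 bases before and 50 after the gene's start. They matched 45 of the 51 genes by gene identifier, and both strands were searched. Sec61a1, Pdia6, Ern1, Kdelr2, Sec24c and Sec61a2 had no window. Elements outside the windows, or with other letters, were not searched for. ERSE was found in 4 of the 45 (8.89%), against 14 of 6385 windows of genes with a named probe set (0.219%) and 22 of all 33469 windows (0.0657%). These were the lectin chaperone genes Calr and Canx, Creld2 and Xbp1, and the far end of the site lay 232, 230, 145 and 65 bases before the start, on the opposite strand in Calr and Creld2. All 4 were named singly in the rule that chose the genes, and both comparison sets include the 45 windows. The contrast in shares was not tested. The 4 sites are shown in the direction of the motif, with the fixed letters in capitals, so that their spacers can be compared.

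Calr: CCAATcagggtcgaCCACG
Canx: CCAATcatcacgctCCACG
Creld2: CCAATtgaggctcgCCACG
Xbp1: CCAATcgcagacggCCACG

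The 9-base spacers differed between the 4 genes. The UPR element was present in 3 windows (6.67%, against 0.893% of windows of genes with a named probe set), those of Copb2, Kdelr3 and Srp19. ERSE-II (ATTGG and CCACG separated by any 1 base), the cyclic AMP response element (TGACGTCA) and TTGCATCA, one form of the element that ATF4 binds, were found in 0 of the 45 windows, against 0.094%, 3.27% and 0.548%. Of these motifs, ERSE-II shares the letters CCACG with ERSE, and TGACGT is common to the UPR and cyclic AMP response elements. A match is a description of the sequence and no evidence that a factor binds there. The 250 bases before the start, 5′ to 3′ on the gene's strand and with matched letters in capitals, are given for 3 genes to which the results refer: Xbp1 (chr14:84604373-84604622, plus strand), the ERSE gene closest to the IRE1 arm; Copb2 (chr8:108040437-108040686, plus strand), a COPI gene with the UPR element on its opposite strand; and Sec31a (chr14:9518487-9518736, plus strand), the COPII gene with the largest decrease, where none of the 5 motifs was found.

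Xbp1: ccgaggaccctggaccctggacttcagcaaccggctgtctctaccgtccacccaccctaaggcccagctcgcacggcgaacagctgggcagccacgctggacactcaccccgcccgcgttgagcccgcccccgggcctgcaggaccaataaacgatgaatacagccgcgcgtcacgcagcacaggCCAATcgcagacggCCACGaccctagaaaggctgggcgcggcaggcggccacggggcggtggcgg
Copb2: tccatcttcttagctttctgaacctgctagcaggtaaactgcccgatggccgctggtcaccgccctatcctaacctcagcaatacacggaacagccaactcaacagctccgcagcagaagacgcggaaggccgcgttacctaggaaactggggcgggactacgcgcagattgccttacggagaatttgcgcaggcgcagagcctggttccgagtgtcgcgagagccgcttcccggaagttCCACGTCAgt
Sec31a: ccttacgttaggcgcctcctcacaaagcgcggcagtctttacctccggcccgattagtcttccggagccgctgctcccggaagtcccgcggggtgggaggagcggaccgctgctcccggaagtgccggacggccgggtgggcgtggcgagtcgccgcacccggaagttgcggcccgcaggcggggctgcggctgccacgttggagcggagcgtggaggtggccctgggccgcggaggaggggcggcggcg

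Expression values are the authors' log2 signals from the RMA (robust multichip analysis) algorithm, and changes are POG minus DMSO on that scale, with the standard error (SE) and the adjusted p of limma's moderated test over all 10141 probe sets. A smaller share of the secretory pathway genes than of all probe sets passed the threshold. Of the 51 genes, 4 were higher and 6 lower in POG-treated rTSPCs at an adjusted p under 0.05 (7.84% and 11.8%), where 26.7% of all probe sets were higher and 19.6% lower, 46.3% in all (46.8% of the 7240 probe sets with a symbol). After each array was centred on its median, 2 of the 51 genes were higher and 8 lower, against 22.6% and 22.7% of all probe sets, and after quantile normalization 4 and 6, against 23% and 21.8%. The median change was -0.03 for the 51 genes and 0.11 for all probe sets, and the median size of the change without regard to sign was 0.24 and 0.49. A change of less than 0.5 in either direction was measured for 41 of the 51 genes (80.4%), against 50.9% of all probe sets. With the methods' t-test after adjustment, 5 of the 51 genes passed, the 4 COPII genes below and Rpn1, so that Trib3, Ern1, Tmed5 and the smaller rises did not. These are counts without a test of the genes as a set. The lower calls were in the COPII group (4 genes), Tmed5 and Ern1, and the higher calls were Trib3, 2 COPI genes and Pdia4. In RNA from whole cultures, fewer cells of a type and less RNA per cell cannot be told apart.

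**Figure D1:**
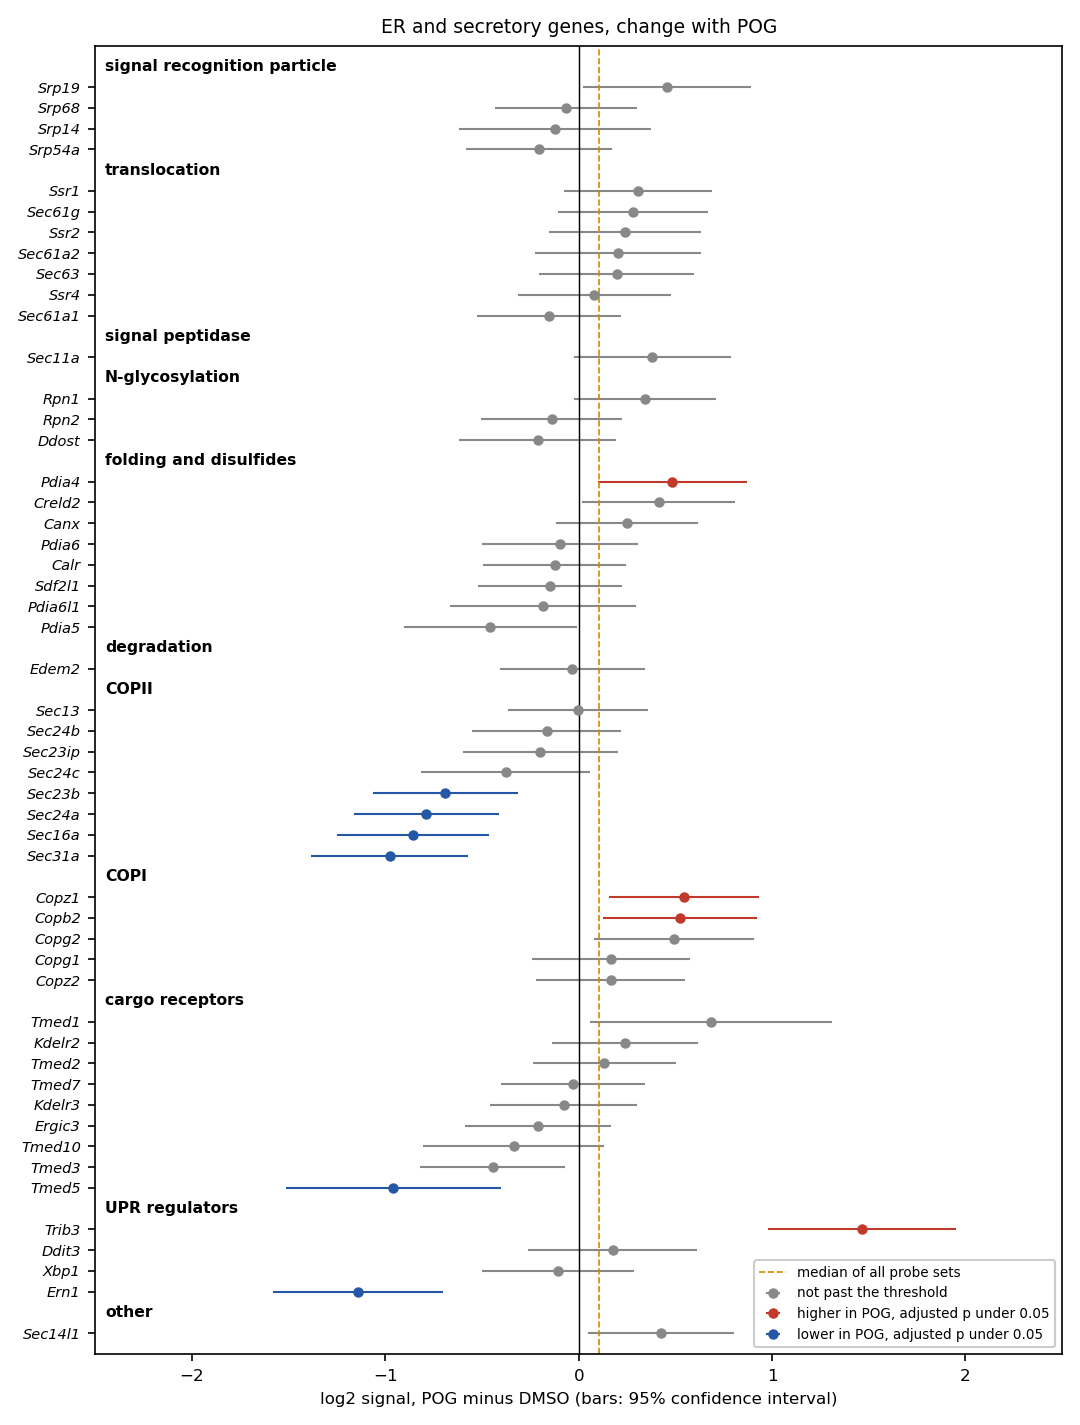
Change of each of the 51 genes between POG-treated and DMSO-treated rTSPCs (x axis, log2 signal, POG minus DMSO; points are limma estimates from 2 and 3 arrays, bars their 95% confidence intervals), grouped by role and coloured by call. COPII genes lie at or left of 0, with 4 of 8 past the threshold, COPI genes lie right of 0 with 2 of 5 past it, and Trib3 (1.47) and Ern1 (-1.14) mark the ends of the range.

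Arrays of a group were close for these genes. The median range over the 3 DMSO arrays was 0.25, against 0.36 for all probe sets, and the median gap between the POG arrays was 0.13, against 0.21. The 51 genes were also brighter, with array medians of 12.55 to 12.64, against 8.36 to 8.52 for all probe sets. Spread at matched brightness was not compared. DMSO replicate 1 stood somewhat apart: it was the lowest of the 3 DMSO arrays for 30 of the 51 genes, against 43% of all probe sets, and for 28 of the 51, against 33%, after median centring. Without it 2 of the 51 genes were higher and 8 lower. Signals of smooth muscle genes also moved with the treatment, with 6 of 6 markers lower (mean log2 signal of the list 11.34 to 11.48 on POG arrays and 15.40 to 15.50 on DMSO arrays), and 4 of 4 measured leukocyte markers were higher from low signals (5.99 to 6.44 on POG arrays and 4.35 to 4.58 on DMSO arrays), while Ptprc, the defining pan-leukocyte gene, and Itgam had no named probe set. Of the endothelial markers Kdr was higher and Cd34 lower, and 0 of 4 epithelial markers had a named probe set. Of 7 measured tendon and mesenchymal markers 0 were higher and 2 lower, Col1a1 lay at 19.18 or more on every array, and Scx, the tendon transcription factor, at 6.11 or less, under the lower quartile of all signals over the 5 arrays (6.17). Tnmd, Mkx and Col1a2 had no named probe set. The part of these marker changes in the results was not tested.

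The COPII group held 4 of the 6 lower calls. Beside subunits of the coat it includes the scaffold Sec16a and Sec23ip, which binds the Sec23 subunit. Of the group's 8 genes 4 were lower and 0 higher, with a median of -0.53. Thus 50% were called, against 46.3% of all probe sets in either direction and 19.6% lower. Of the 4 lower genes, Sec31a, Sec24a and Sec23b encode coat subunits. Sec31a, the outer coat protein that forms the cage of the vesicle, had signals of 11.05 and 10.70 on the POG arrays, against 11.73, 11.92 and 11.91 on the DMSO arrays. It fell by 0.98 ± 0.18 (SE), which is 1.97-fold lower (limma adjusted p = 0.00202). Sec16a, the scaffold that marks ER exit sites, was at 9.47 and 9.76 on the POG arrays and at 10.44, 10.58 and 10.40 on the DMSO arrays. It fell by 0.86 ± 0.18 (1.81-fold lower, limma adjusted p = 0.00352). In both genes the higher POG array lay well under the lowest DMSO array.

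Both inner coat partners had a measured member that fell, while Sec23a and Sec24d were not among the genes analysed. Sec24a, an isoform of the subunit that binds cargo, was at 12.59 and 12.56 on the POG arrays, against 13.45, 13.24 and 13.40 on the DMSO arrays, and fell by 0.79 ± 0.17 (1.73-fold lower, limma adjusted p = 0.00421). Sec23b, an isoform of the subunit that activates the GTPase SAR1, was at 10.96 and 10.78 on the POG arrays, against 11.56, 11.50 and 11.62 on the DMSO arrays, and fell by 0.69 ± 0.17 (1.61-fold lower, limma adjusted p = 0.00822). The groups did not overlap for either gene, as for 28.5% of all probe sets with lower POG arrays. Sec31a, Sec24a and Sec16a stayed past the threshold under every alternative run. Sec23b did so under all but the fit without POG replicate 2, where the change was -0.60 (limma adjusted p = 0.0695).

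The other COPII genes did not pass. Sec13, the partner of Sec31a in the outer cage, had nearly the same signal throughout, 12.56 and 12.58 on the POG arrays and 12.58, 12.59 and 12.55 on the DMSO arrays, and the 95% confidence interval of its change ran from -0.36 to 0.36. Among the Sec24 isoforms, Sec24c was at -0.38 (interval -0.81 to 0.06) and Sec24b at -0.17 (-0.55 to 0.22), beside the -0.79 of Sec24a, and whether the isoforms differed from each other in their change was not tested. Sec23ip, which binds the Sec23 subunit, was at -0.20. Of the GTPases that start the coat, Sar1b had a named probe set and was at 0.29 (limma adjusted p = 0.257), and Preb, the exchange factor for SAR1, was at 0.01.

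**Figure D2:**
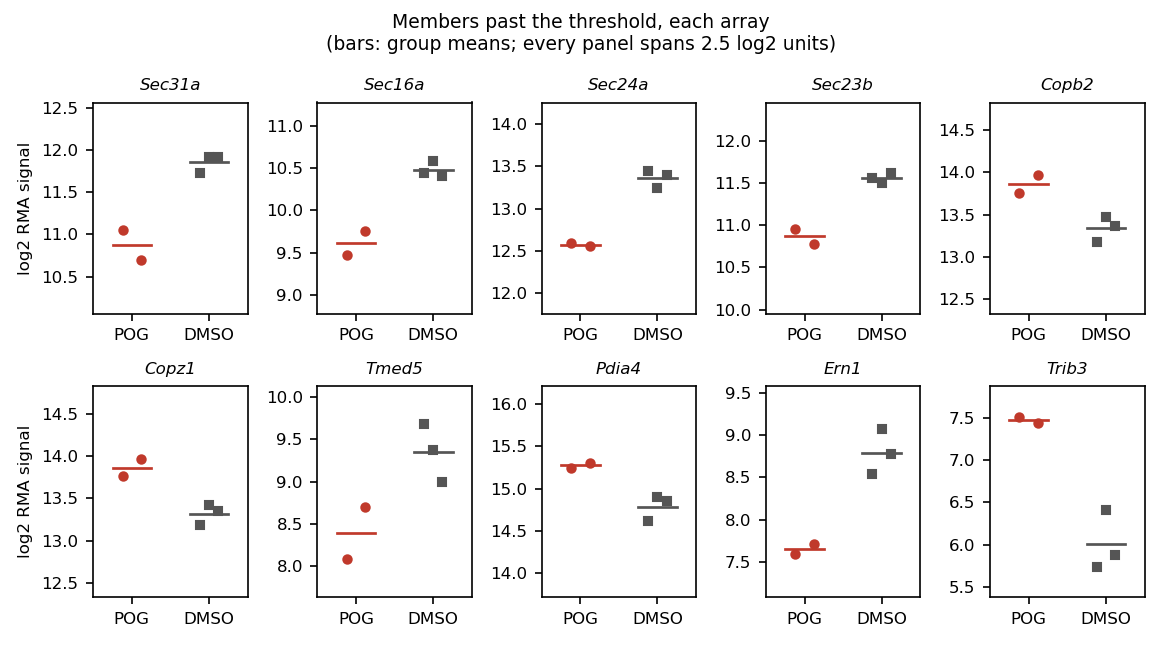
Log2 RMA signal (y axis) of the 10 genes past the threshold on each of the 2 POG arrays (circles, left) and 3 DMSO arrays (squares, right), with bars at the group means and every panel spanning 2.5 log2 units. In all 10 genes the POG arrays lie to one side of all DMSO arrays. The genes were selected by the test on these same arrays, which favours such a separation. Of all probe sets, 38.3% were separated with POG higher and 28.5% with POG lower. The gap is widest in Trib3 and Ern1 and narrowest in Copb2, Copz1, Tmed5 and Pdia4.

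The COPI coat held 2 of the 4 higher calls. All 5 measured genes had positive changes, as had 5705 of all 10141 probe sets, and their median was 0.49. Of the 5 genes 2 passed the threshold (40%), against 26.7% of all probe sets higher and 46.3% called in either direction. Copz1, the ζ subunit of the coat, was at 13.76 and 13.97 on the POG arrays and 13.19, 13.42 and 13.35 on the DMSO arrays, a rise of 0.55 ± 0.17 (1.46-fold, limma adjusted p = 0.028). Copb2, the β′ subunit that binds the retrieval signals of cargo, was at 13.75 and 13.97 on the POG arrays and 13.18, 13.47 and 13.36 on the DMSO arrays, a rise of 0.52 ± 0.18 (1.44-fold, limma adjusted p = 0.0359). Its promoter holds the UPR element shown above, 10 bases before the start.

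These rises were small, and neither reached the 1.5-fold threshold of the study's methods. Both passed without DMSO replicate 2 and neither passed without any one of the other 4 arrays, and after median centring Copz1 passed (limma adjusted p = 0.0475) but Copb2 did not (0.0604). Copg2, a γ subunit, did not pass at 0.49 (10.32 and 10.51 on the POG arrays, 9.73, 9.91 and 10.13 on the DMSO arrays, limma adjusted p = 0.0523) but passed in 6 alternatives, among them the fit without DMSO replicate 3, and its paralog Copg1 was at 0.17 (interval -0.24 to 0.58). Copz2, the paralog of Copz1, was at 0.17 (interval -0.22 to 0.55).

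Of 9 cargo receptors that travel between ER and Golgi, 0 were higher and 1 was lower (11.1%), against 26.7% and 19.6% of all probe sets. The median of the 9 genes was -0.08. Tmed5, of the p24 family of cargo receptors, was at 8.08 and 8.70 on the POG arrays, against 9.68, 9.37 and 9.0 on the DMSO arrays, and fell by 0.96 ± 0.25 (1.95-fold lower, limma adjusted p = 0.0111). Both groups were scattered, the gap between them was 0.30 at its narrowest, and without POG replicate 1 the change was -0.65 and did not pass (limma adjusted p = 0.122). Other p24 genes did not pass: Tmed1 was at 0.69 (interval 0.06 to 1.31), Tmed2 at 0.13, Tmed7 at -0.03, Tmed10 at -0.34 and Tmed3 at -0.45 (interval -0.82 to -0.07, limma adjusted p = 0.0531). Tmed3 passed after median centring but not after quantile normalization. Without DMSO replicate 1, Tmed1 (0.915) and Tmed10 (-0.515) passed (limma adjusted p = 0.0169 and 0.0473). Tmed1 also passed with array weights (limma adjusted p = 0.0447). Kdelr2 and Kdelr3, the receptors that return proteins with the KDEL signal to the ER, were at 0.24 (interval -0.14 to 0.62) and -0.08 (-0.46 to 0.30), and Ergic3, which cycles between the compartments, at -0.21.

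At the entry to the ER 0 of 15 genes passed the threshold with limma, against 46.3% of all probe sets. For 1 of the 15 (Srp19) the unadjusted p was under 0.05. Among alternatives, Srp19 passed on the brighter probe sets, Rpn1, Sec11a and Ssr1 with trend and robust moderation, and Rpn1 also with the methods' t-test after adjustment. Of 7 translocation genes, 6 had positive and 1 negative changes, against 5705 positive and 4436 negative among all probe sets. The median of the 7 genes was 0.20. Sec61a1, the pore of the main channel, was at 16.27 and 16.16 on the POG arrays and 16.27, 16.40 and 16.43 on the DMSO arrays, a change of -0.15 (interval -0.52 to 0.22). Its paralog Sec61a2 was at 0.20, the small subunit Sec61g at 0.28 and Sec63, which recruits the chaperone BiP to the channel, at 0.20. The translocon-associated proteins Ssr1, Ssr2 and Ssr4 were at 0.31, 0.24 and 0.08. All 7 intervals lay within 1 log2 unit of 0, so a change of 2-fold was outside each.

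The 4 signal recognition particle genes ranged between -0.21 and 0.46. Srp54a, the GTPase that binds signal sequences, was at -0.21, Srp68 at -0.07, Srp14, which helps to pause elongation, at -0.12, and Srp19, an assembly factor of the particle with the UPR element in its promoter window, at 0.46 (8.94 and 9.30 on the POG arrays, 8.80, 8.74 and 8.45 on the DMSO arrays, limma adjusted p = 0.0776). Sec11a, a catalytic subunit of signal peptidase, was at 0.38 (interval -0.03 to 0.79). Among oligosaccharyltransferase subunits, Rpn1 was at 0.34 (14.48 and 14.59 on the POG arrays, 14.24, 14.14 and 14.20 on the DMSO arrays, limma adjusted p = 0.113), Rpn2 at -0.14 and Ddost at -0.21. The groups did not overlap for Rpn1.

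Of 8 folding genes 1 was higher (12.5%) and 0 were lower, against 26.7% and 19.6% of all probe sets. The median of the 8 genes was -0.11. Pdia4, a disulfide isomerase also known as ERp72, was at 15.24 and 15.31 on the POG arrays, against 14.62, 14.90 and 14.85 on the DMSO arrays, and rose by 0.49 ± 0.17 (1.40-fold, limma adjusted p = 0.0429). With any one of the 5 arrays left out it did not pass, nor did it after median centring. Pdia6 was at -0.10 and Pdia5 at -0.46 (10.07 on both POG arrays, 10.20, 10.75 and 10.63 on the DMSO arrays, limma adjusted p = 0.0867), which passed after median centring and without DMSO replicate 1 but not after quantile normalization. Pdia6l1, a Pdia6-like gene, had low signals of 5.28 and 4.62 on the POG arrays and 5.26, 5.08 and 5.07 on the DMSO arrays, under the lower quartile of all signals on each array, and whether its probes are separate from those of Pdia6 was not tested.

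The calreticulin cycle genes, both with an ERSE, did not pass. Calr was at 17.99 and 17.96 on the POG arrays and 18.01, 18.18 and 18.11 on the DMSO arrays, a change of -0.13 (interval -0.49 to 0.24). Canx was at 16.68 and 16.58 on the POG arrays and 16.39, 16.41 and 16.34 on the DMSO arrays, a change of 0.25 (interval -0.11 to 0.61, limma adjusted p = 0.231) with groups that did not overlap. Creld2, an ER protein induced by ER stress and also with an ERSE, was at 0.41 (9.92 and 9.88 on the POG arrays, 9.30, 9.51 and 9.65 on the DMSO arrays, limma adjusted p = 0.0804). Sdf2l1, an ER stress gene that works beside BiP, was at -0.15 and Edem2, which trims mannose on proteins bound for degradation, at -0.03. Of the 4 genes with an ERSE, 0 passed the threshold with limma over all probe sets or with the methods' t-test after adjustment. For 1 of them, Creld2, the unadjusted p was under 0.05, and it passed when only the brighter probe sets were tested (limma adjusted p = 0.044).

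The UPR regulators held the largest rise and the largest fall of the 51 genes. Trib3, a pseudokinase induced by ATF4 and CHOP, was at 7.51 and 7.44 on the POG arrays, against 5.74, 6.41 and 5.88 on the DMSO arrays, and rose by 1.47 ± 0.22 (2.76-fold, limma adjusted p = 0.000529). Its mean on the DMSO arrays, 6.01, lay under 6.17, the lower quartile of all signals. Ern1, which encodes the sensor IRE1α, was at 7.59 and 7.71 on the POG arrays, against 8.54, 9.07 and 8.77 on the DMSO arrays, and fell by 1.14 ± 0.20 (2.21-fold lower, limma adjusted p = 0.00128). Both passed in every fit that left out an array and after either rescaling.

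The other UPR regulators did not pass. Xbp1, whose mRNA IRE1α splices, was at 15.05 and 14.92 on the POG arrays and 14.91, 15.20 and 15.17 on the DMSO arrays, a change of -0.11 (interval -0.50 to 0.29), and splicing was not measured by these values. Ddit3, which encodes CHOP, was at 11.12 and 11.59 on the POG arrays and 11.05, 11.18 and 11.31 on the DMSO arrays, a change of 0.18 (interval -0.26 to 0.61). The groups overlapped in both genes. Chac1, another gene that ATF4 and CHOP induce, is no member of the 51 and had a change opposite in sign to that of Trib3, at -0.77 (7.23 and 7.46 on the POG arrays, 7.46, 8.38 and 8.49 on the DMSO arrays, limma adjusted p = 0.0513). It passed in 7 alternatives, after both rescalings and without DMSO replicate 1 among them. Asns, Sesn2 and Ppp1r15a, with Chac1 in a list of 22 further UPR and ER chaperone genes, were at 0.095, 0.20 and 0.07 and did not pass. In that list 7 changes were positive and 15 negative, against 5705 positive and 4436 negative among all probe sets. Sec14l1, which the symbol rule also caught, belongs to a family of lipid-binding proteins outside the ER pathway and was at 0.43 (limma adjusted p = 0.0634).

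**Figure D3:**
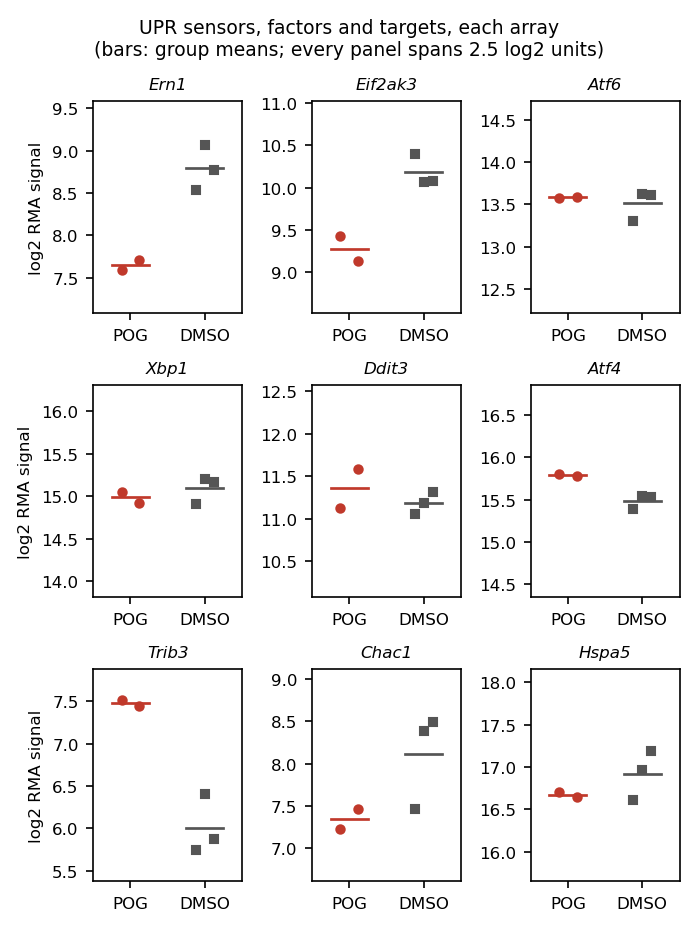
Log2 RMA signal (y axis) of UPR sensors (Ern1, Eif2ak3, Atf6), factors (Xbp1, Ddit3, Atf4) and targets (Trib3, Chac1, Hspa5) on the 2 POG arrays (circles, left) and 3 DMSO arrays (squares, right), with bars at the group means and every panel spanning 2.5 log2 units. Ern1 and Eif2ak3 are lower and Trib3 is higher on both POG arrays. Atf4 (0.30, not past the threshold) is also higher on both, by less, while Atf6, Xbp1, Ddit3 and Hspa5 show changes between -0.25 and 0.18.

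Among the 41 genes that did not pass, the 95% confidence interval of the change lay within 1 log2 unit of 0 for 40, the exception being Tmed1, and within 1.5-fold of no change for 17. At the thresholds named in the study's methods (p under 0.05 before adjustment, more than 1.5-fold), applied to limma's p, 2 genes were higher (Trib3 and Tmed1) and 6 lower, the same 6 genes as with the adjusted p, against 24.1% and 17.6% of all probe sets. With the Student's t-test that the methods name, 1 gene (Trib3) was higher and 5 were lower at the same thresholds, Tmed1 and Tmed5 not passing. The groups did not overlap for 16 genes with higher and 13 with lower POG arrays, against 38.3% and 28.5% of all probe sets.

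Further genes of the pathway, in 4 lists of UPR and ER chaperone, translocation and glycosylation, vesicle transport and collagen folding genes, were counted in the same fit. Of 62 measured genes 5 were higher and 10 lower (8.06% and 16.1%, against 26.7% and 19.6% of all probe sets), and after median centring 3 and 15. Eif2ak3, the sensor PERK, was at 9.43 and 9.13 on the POG arrays, against 10.40, 10.07 and 10.08 on the DMSO arrays, and fell by 0.90 ± 0.19 (limma adjusted p = 0.00389). Atf6 was at 0.07 (interval -0.32 to 0.47). Atf4 was at 0.30 (15.80 and 15.78 on the POG arrays, 15.39, 15.54 and 15.53 on the DMSO arrays, limma adjusted p = 0.156). Among the alternatives, Atf4 passed only with trend and robust moderation (limma adjusted p = 0.0365). Of 22 UPR and ER chaperone genes 1 was higher and 4 lower (4.55% and 18.2%, against 26.7% and 19.6% of all probe sets). The chaperone Hyou1 (-0.72), the BiP co-chaperone Dnajb11 (-0.74) and Sel1l (-0.55), an adaptor of ER-associated degradation, fell (limma adjusted p = 0.0241, 0.0347 and 0.0223), and Dnajc3, which inhibits PERK, rose by 0.53 ± 0.17 (limma adjusted p = 0.0304). Of these, Hyou1 fell least without POG replicate 2, at -0.36. Without DMSO replicate 2 it was at -0.67 and did not pass (limma adjusted p = 0.0702). Dnajb11 did not pass without any one of 4 arrays, DMSO replicate 1 excepted, Sel1l without DMSO replicate 2 or either POG array, and Dnajc3 without any one of 4 arrays, DMSO replicate 2 excepted, or after median centring (0.0526). Hspa5, which encodes BiP itself, was at 16.71 and 16.64 on the POG arrays and 16.61, 16.96 and 17.19 on the DMSO arrays, a change of -0.25 (interval -0.70 to 0.21). DMSO replicate 1 was also the lowest DMSO array for Hspa5, Dnajb11 and Hsp90b1 (14.44, against 15.49 and 15.56 on the other DMSO arrays). Hsp90b1 did not pass at -0.17, but without DMSO replicate 1 it was at -0.53 and passed (limma adjusted p = 0.039).

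Of the 22 further vesicle transport genes 3 were higher and 2 lower (13.6% and 9.09%, against 26.7% and 19.6% of all probe sets). Ykt6, a SNARE of ER to Golgi traffic, fell by 1.01 ± 0.17 (9.79 and 9.88 on the POG arrays, 10.71, 10.93 and 10.90 on the DMSO arrays, limma adjusted p = 0.00112), and Arfgap3, which acts on the GTPase that recruits COPI, by 0.76 ± 0.17 (10.27 and 10.32 on the POG arrays, 10.96, 11.01 and 11.19 on the DMSO arrays). The Golgi SNARE Stx5 rose by 0.74 ± 0.19, and the tethering factors Trappc11 and Trappc13 by 0.64 and 0.56 (limma adjusted p = 0.00967, 0.026 and 0.0257 for the 3 genes). Trappc11 did not pass after either rescaling or without DMSO replicate 3 or POG replicate 1, Trappc13 without DMSO replicate 1, DMSO replicate 2 or POG replicate 2, and Stx5 without POG replicate 2. Of the 8 further translocation and glycosylation genes 0 passed with limma, against 46.3% of all probe sets. For 1 of them (Spcs2, a subunit of signal peptidase) the unadjusted p was under 0.05. Changes of the 8 genes ranged between -0.10 and 0.41.

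Of 10 genes that modify and fold collagen in the ER, 4 were lower and 1 higher. Plod2, the lysyl hydroxylase of collagen telopeptides, was at 15.27 and 15.50 on the POG arrays, against 15.92, 16.21 and 16.12 on the DMSO arrays, and fell by 0.70 ± 0.18 (limma adjusted p = 0.0106). P3h1 and Crtap, partners in the prolyl 3-hydroxylase complex, fell by 0.72 ± 0.18 and 0.64 ± 0.17, and P3h3 by 0.59 ± 0.20 (limma adjusted p = 0.00906, 0.011 and 0.0324). Plod1, the lysyl hydroxylase of the helix, rose by 0.58 ± 0.17 (13.33 and 13.27 on the POG arrays, 12.64, 12.84 and 12.67 on the DMSO arrays). Serpinh1, the collagen chaperone HSP47, was at 0.02 (interval -0.35 to 0.39). Leaving out a single POG array ended the calls of Plod2 (replicate 1), P3h1 (replicate 2) and Crtap, P3h3 and Plod1 (either one), and P3h3 did not pass without DMSO replicate 2 or 3 either. With 50% of the 10 genes called, the share was close to the 46.3% of all probe sets.

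**Figure D4:**
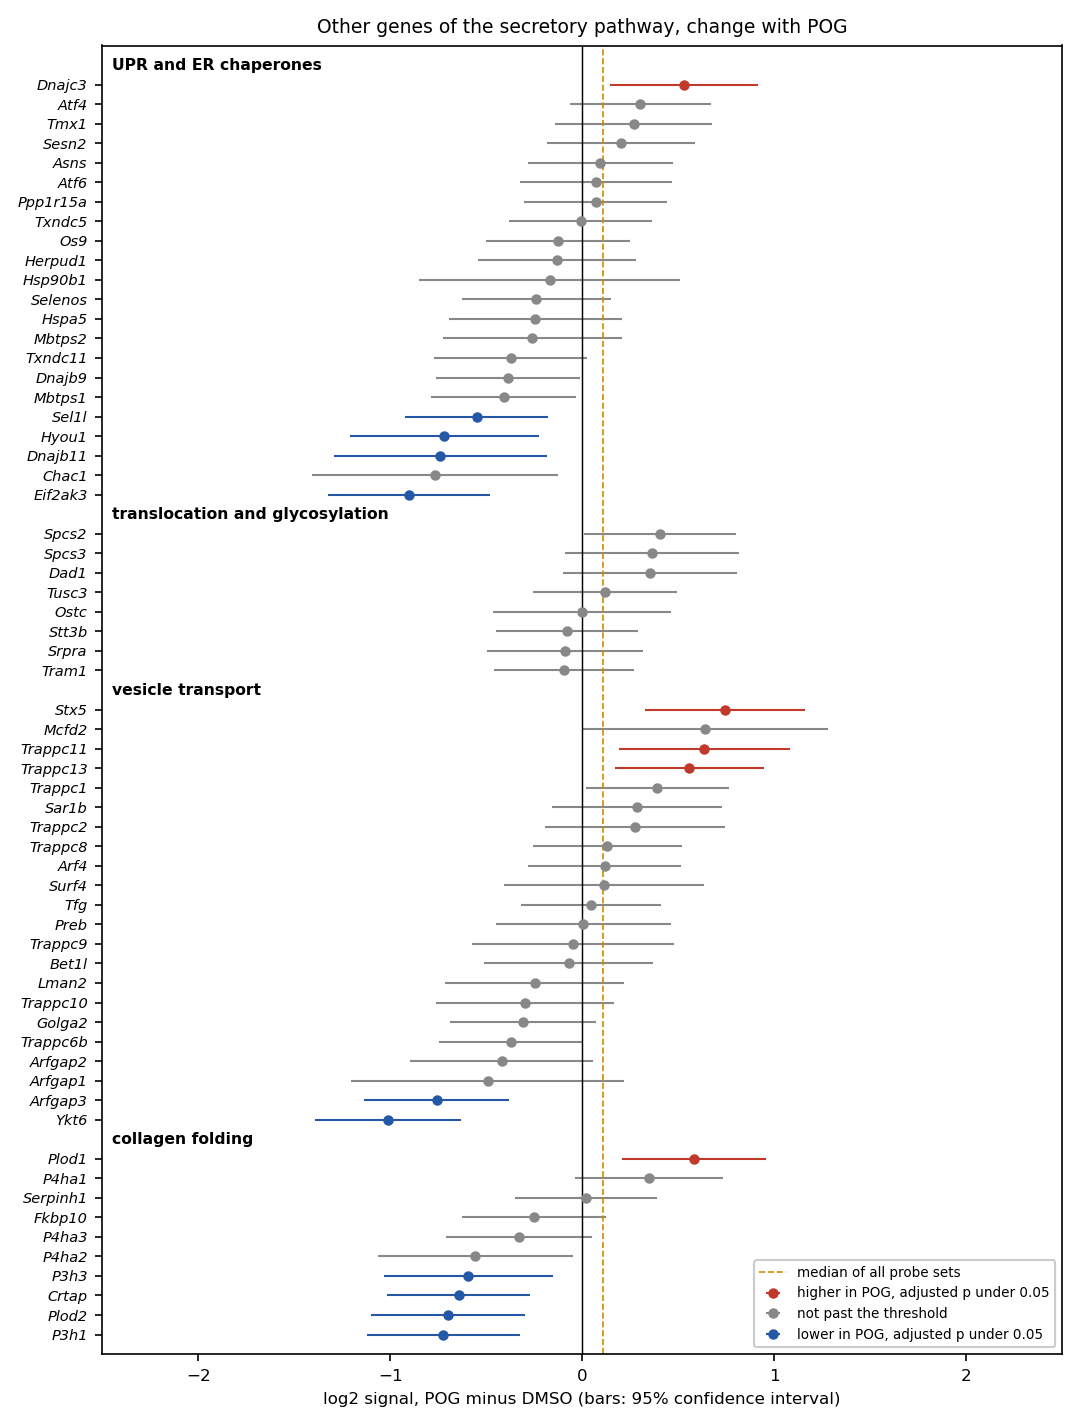
Change of the 62 further secretory pathway genes between POG-treated and DMSO-treated rTSPCs (x axis, log2 signal, POG minus DMSO; points are limma estimates from 2 and 3 arrays, bars their 95% confidence intervals), by list and coloured by call. Of the 62 genes, 5 are higher and 10 lower, none of them in the translocation and glycosylation list.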

How the data were processed

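Expression was measured on Affymetrix arrays in total RNA of rTSPCs at passage 12, from 2 POG-treated and 3 DMSO-treated samples grouped by their titles. The deposited values are log2 signals per probe set, which the authors made with RMA at default settings and global scaling. RMA carries no version in the submitters' notes, and the rule that chose the 10141 probe sets is not given in the sources used here. A second deposited table differed from the first by at most 0. Gene symbols came from the platform annotation (7240 probe sets with 1 symbol, 2901 without). The array named in the methods and that of the annotation differ in name, so gene symbols rest on matching probe set identifiers. No detection calls were used. Precision is set by the number of arrays and by limma's moderation, which draws each variance toward one estimated over all probe sets. The fit had 3 residual and 9.86 total degrees of freedom. SEs and intervals are therefore not the spread of a gene's own arrays alone.

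Each probe set was compared with limma 3.58.1 in R 4.3.3 (lmFit and eBayes, two-sided, Benjamini-Hochberg over all 10141, threshold 0.05). The fit was also run on simulated data, but that run is not evidence for the calls made here. The genes, role groups and further lists were chosen with earlier results of these data known, and all 51 are accounted for. Values on each array are given for genes past the threshold, the 4 UPR regulators and examples among the rest, these chosen after their values were seen. Results were recomputed from the second table, after quantile normalization, after subtracting each array's median, on the brighter probe sets (mean of at least 8.45), with trend and robust moderation, array weights or the replicate block, with the methods' t-test and thresholds, on probe sets with a symbol only, and without each array. Promoter windows were RefSeq's (GRCr8). Confidence intervals (95%) are those of the limma fit.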

Additional observations from a re-analysis of the deposited data

How the results depend on the processing

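With 2 and 3 arrays, rises of about 1.4-fold sit at the edge of what the fit calls. The 10 called genes of the 51 kept their direction under every alternative run, and 3 of them (Sec31a, Sec16a, Sec24a) also passed in every one. Of the 15 further pathway genes called, 0 changed sign and 2 (Ykt6, Arfgap3) passed in every one. Against 4 higher calls there were 2 after median centring (Trib3, Copz1), 2 with the replicate block (Trib3, Copg2), 2 at the study's thresholds (Trib3, Tmed1), 1 with the adjusted t-test (Rpn1), 1 with the t-test at the study's thresholds (Trib3), 7 on the brighter probe sets, where Trib3 was not tested, 8 with trend and robust moderation, and 1 to 3 without an array. The 6 lower calls were 4 to 8 throughout, and the 4 COPII calls 3 to 4. Against 2 COPI calls there were 1 after centring (Copz1), 1 with the replicate block (Copg2), 0 with the t-test and at the study's thresholds, 0 to 2 without an array, and 3 (Copg2 added) on the brighter or the named probe sets, with trend and robust moderation and with array weights. Same-numbered arrays deviated with correlations of 0.0042 and 0.0052, so the numbers gave no sign of pairing and the block (4193 probe sets called) was only an alternative.

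Further pathway genes higher were 3 after centring and with the block, 9 with trend and robust moderation, 1 with the t-test, 2 at the study's thresholds and 1 to 4 without an array; those lower were 15 after centring, 14 with trend and robust moderation, 13 on the brighter probe sets, 8 with the block, 4 with the adjusted t-test, 6 with the t-test at the study's thresholds and 5 to 13 without an array. Over all probe sets 4694 were called, 2894 among the brighter ones, where fewer were tested, 2078 with the adjusted t-test and 2900 to 4347 without an array, lowest without POG replicate 2. The brighter probe sets were those with a mean at or above the median of all probe set means (8.45). The 2894 calls among them are therefore out of a smaller number, and the count alone does not show a smaller share called. That share was not set beside the 46.3% of the main fit or the 7 higher calls of the 51 genes. The median of the 51 genes was -0.12 after centring and -0.075 to 0.005 without an array. Centring moved the median of all probe sets by -0.09 and quantile normalization by -0.06. Cargo receptors had medians of -0.163 with centring, -0.144 on the brighter probe sets and -0.167 to -0.025 without an array.

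Alternatives were followed gene by gene for the 51 genes, the 15 further genes called and 6 others. Among these, signs turned in genes that did not pass, most of them near 0: after centring, which shifted every change by -0.09, in Ssr4 (-0.0067), Atf6 (-0.015) and Serpinh1 (-0.065), after quantile normalization in Sec13 (0.0493) and Srp68 (0.010), and with the block in Hsp90b1 (0.030). Without an array the changes ran from -0.060 to 0.41 in Ddit3, -0.015 to 0.155 in Ssr4, -0.015 to 0.0067 in Sec13, -0.090 to 0.020 in Edem2, -0.085 to 0.010 in Tmed7, -0.167 to 0.0133 in Kdelr3, -0.387 to 0.143 in Srp14, -0.517 to 0.143 in Pdia6l1, -0.030 to 0.125 in Atf6, -0.0233 to 0.0667 in Serpinh1 and -0.53 to 0.030 in Hsp90b1. Apart from the smaller number tested among the brighter probe sets, the causes of these differences were not tested.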
